A study of Mus musculus with 18 samples.

Results

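The genes described here are 10 components of the Wnt pathway and regulators of pericentral liver zonation, namely Axin2, Lgr5, Tbx3, Rnf43, Znrf3, Rspo3, Wnt2, Wnt9b, Tcf7l2 and Ctnnb1. They were taken from the table by symbol, and all 10 were found among the 14449 genes tested. They were measured by RNA sequencing of whole livers from WT male mice of 8 to 9 weeks, which were kept in a cycle of 12 h light and 12 h dark. Livers were taken at zeitgeber times (ZT, hours after lights on) 1, 5, 9, 13, 17 and 21, with 3 livers from separate mice at each time point and 18 livers in all. From each group of 5 mice, the 3 with the best RNA were sequenced. No group was treated or carried a mutated allele, so every comparison is between times of day.

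Wnt proteins bind Frizzled receptors and their LRP co-receptors, and the signal frees beta-catenin (encoded by Ctnnb1) from a complex that otherwise marks it for breakdown. Beta-catenin then joins TCF factors in the nucleus and switches on target genes. In the liver, endothelial cells around the central vein release Wnt ligands and R-spondin, and this signal keeps nearby hepatocytes in the pericentral state, with glutamine synthesis, bile acid synthesis and drug metabolism, whereas hepatocytes near the portal vein make urea and glucose. R-spondin acts by way of the LGR receptors to hold back the ubiquitin ligases RNF43 and ZNRF3, which otherwise remove Frizzled receptors from the cell surface. Values are given as normalized values, which are estimated reads scaled so that each library is of equal effective size.

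The study used these livers as one of several datasets on which methods for finding daily rhythms were compared. In the 10 genes, the level followed a 24 h curve in Lgr5, Znrf3, Rnf43 and Rspo3. The fitted peaks of Lgr5, Znrf3 and Rnf43 lay in the light phase, and that of Rspo3 lay at the change from dark to light, with an interval that reached into the dark phase. The fitted ratio of peak to trough was 1.98 for Lgr5, 1.90 for Rnf43, 1.66 for Znrf3 and 1.36 for Rspo3. These were 4 of 10 genes (40%) with an adjusted p below 0.05 in the limma F test, and 35.3% of all genes tested passed the same test, so the share was near that of the table as a whole. A peak between ZT0 and ZT12 was called in 18.2% of all genes and a peak between ZT12 and ZT24 in 17.1%. The median amplitude of the 24 h curve, which is the size of the swing around the mean on the log2(value + 1) scale, was 0.26 over the 10 genes and 0.16 over all genes. Among called genes it was 0.41 for the 4 members and 0.28 for all. All fold values of this kind are on the scale of log2(value + 1), which understates the change of genes with low values.

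Depth on genes ranged from 10268168 to 23242842 estimated reads per liver, with a median of 12078875. In the levels of 17 clock genes, 17 of the 18 livers resembled the others of their own time point most. The exception was ZT5 replicate 3, which was nearest to ZT9 and was also the deepest library. Without it the 4 calls above held and Wnt9b was called as well, with an adjusted p of 0.0429. Alb, the albumin gene and a defining hepatocyte marker, made up 5.14% to 7.53% of the values of each liver. In whole liver RNA, fewer cells of a type and less RNA per cell cannot be told apart.

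**Figure D1:**
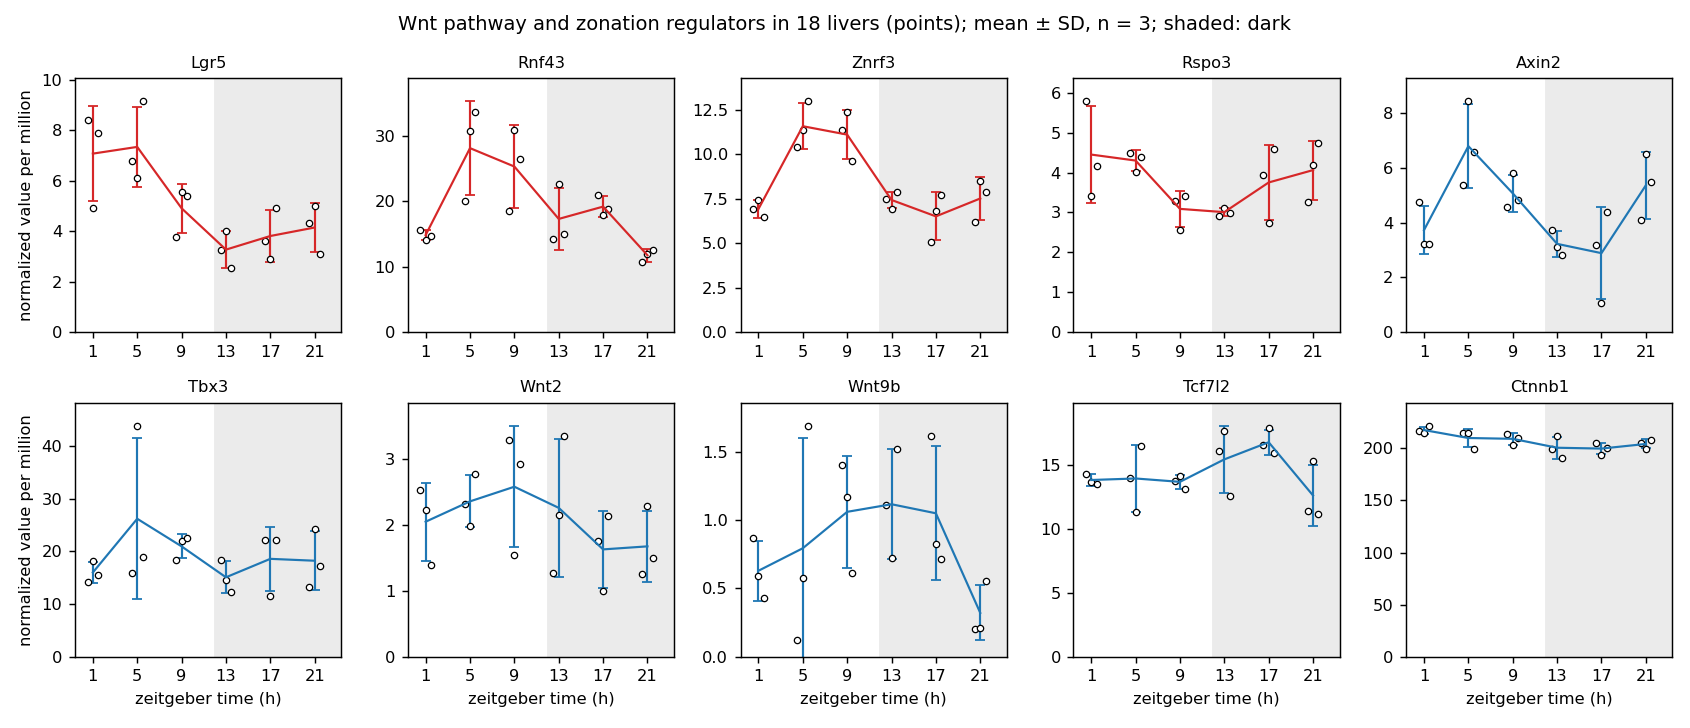
Normalized value (y axis, linear from 0) of each of the 10 genes against zeitgeber time (x axis, h) in 18 livers, with points for single livers, lines and bars for the mean ± SD of 3 livers, red for genes with a called 24 h rhythm, blue for the others and shading for the dark phase. Rnf43 and Znrf3 stand at 28.1 and 11.6 at ZT5, and a single ZT5 liver sets Tbx3 apart at 43.7.

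Lgr5 (ENSMUSG00000020140) encodes a receptor for R-spondins and is itself a target of Wnt signalling in pericentral hepatocytes. It lies on chromosome 10 of GRCm38 from 115450311 to 115587780, on the minus strand. The 3 livers of ZT1 held normalized values of 8.41, 4.93 and 7.89, and those of ZT5 held 6.77, 6.12 and 9.14. Values were 3.79, 5.55 and 5.40 at ZT9 and 3.24, 4.01 and 2.56 at ZT13. At ZT17 they were 3.61, 2.90 and 4.92, and at ZT21 they were 4.32, 5.02 and 3.11. All livers of ZT5 were above all livers of ZT13, the time points with the highest and lowest mean, while livers of times next to each other in the order of levels overlapped. The amplitude of the Lgr5 curve was 0.49 ± 0.09 (SE) with a peak at ZT3.39 ± 1.41 h (95% interval), and the adjusted p was 0.00103. The mean of Lgr5 at ZT5 was 7.34 ± 1.59 (SD, n = 3) and that at ZT13 was 3.27 ± 0.727 (SD, n = 3), a ratio of 2.24.

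Rnf43 (ENSMUSG00000034177, chromosome 11 from 87662722 to 87735539, plus strand) encodes a membrane ubiquitin ligase that clears Frizzled receptors and is induced by Wnt signalling as a brake on it. Its values were 15.7, 14.1 and 14.7 at ZT1 and 20.05, 30.7 and 33.6 at ZT5. They were 18.5, 30.9 and 26.5 at ZT9 and 14.2, 22.7 and 14.98 at ZT13. At ZT17 the livers held 20.9, 17.9 and 18.8, and at ZT21 they held 10.7, 12.0 and 12.6. Every ZT5 liver was above every liver of ZT1 and of ZT21, and the ZT1 livers were in turn above the ZT21 livers, whereas the spread was wide at ZT5, ZT9 and ZT13. The curve had an amplitude of 0.46 ± 0.11 (SE), a peak at ZT8.23 ± 1.84 h and an adjusted p of 0.00811. From ZT1 to ZT5 Rnf43 rose by 0.85 (log2), with an adjusted p of 0.0247 in limma, a step that 2.53% of all genes made in this direction. This step was no longer called without ZT1 replicate 2 or 3 or ZT5 replicate 2 or 3, with an adjusted p from 0.0758 to 0.114, whereas the 24 h call of Rnf43 held in all 18 omissions of a single liver.

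Znrf3 (ENSMUSG00000041961, chromosome 11 from 5276324 to 5444847, minus strand) encodes the close relative of RNF43 with the same action on Frizzled receptors. The ZT1 livers held 6.91, 7.42 and 6.45 and the ZT5 livers 10.4, 11.4 and 13.0. At ZT9 the values were 11.4, 12.4 and 9.60, and at ZT13 they were 7.50, 6.95 and 7.86. They were 5.05, 6.79 and 7.70 at ZT17 and 6.17, 8.50 and 7.89 at ZT21. The 6 livers of ZT5 and ZT9 lay above the 12 livers of the other time points, without overlap. The amplitude was 0.37 ± 0.07 (SE), the peak was at ZT6.89 ± 1.55 h, and the adjusted p was 0.00228. Znrf3 rose by 0.66 (log2) from ZT1 to ZT5, with an adjusted p of 0.0118, and fell by 0.52 from ZT9 to ZT13, with an adjusted p of 0.0311. Steps down from ZT9 to ZT13 were called in 4.60% of all genes. The rise of Znrf3 was not called without ZT1 replicate 3 or ZT5 replicate 3 (adjusted p of up to 0.0640), nor its fall without ZT9 replicate 1 or 2 or any of the ZT13 livers (up to 0.125). These steps and that of Rnf43 were the 3 called of 60 steps between consecutive time points tested in the 10 genes.

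Rspo3 (ENSMUSG00000019880, chromosome 10 from 29452416 to 29535867, minus strand) encodes the R-spondin released by central vein endothelium and stellate cells. Values were 5.78, 3.41 and 4.16 at ZT1 and 4.50, 4.01 and 4.39 at ZT5. They were 3.28, 2.57 and 3.42 at ZT9 and 2.91, 3.11 and 2.996 at ZT13. The livers held 3.94, 2.73 and 4.58 at ZT17 and 3.27, 4.18 and 4.73 at ZT21. The ZT1 livers lay above the ZT13 livers, the closest pair being 3.41 and 3.11, and single ZT17 and ZT21 livers reached the level of ZT5. The curve of Rspo3 had an amplitude of 0.22 ± 0.07 (SE), a peak at ZT0.372 ± 2.34 h and an adjusted p of 0.0343, but the test that assumes no shape gave an adjusted p of 0.165. With the endothelial covariate described further on, the fitted peak was at ZT22.7, and without ZT17 replicate 2 it was at ZT23.8, both in the dark phase. The rhythm call was lost when any of 6 livers was left out in turn, namely ZT1 replicate 1, ZT9 replicate 2, ZT13 replicates 1, 2 and 3 or ZT21 replicate 3, with an adjusted p of up to 0.0911. Of the bases in its exons, 13.1% also lie in exons of Gm48159 on the other strand, and the library kit is not stated to keep the strand.

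**Figure D2:**
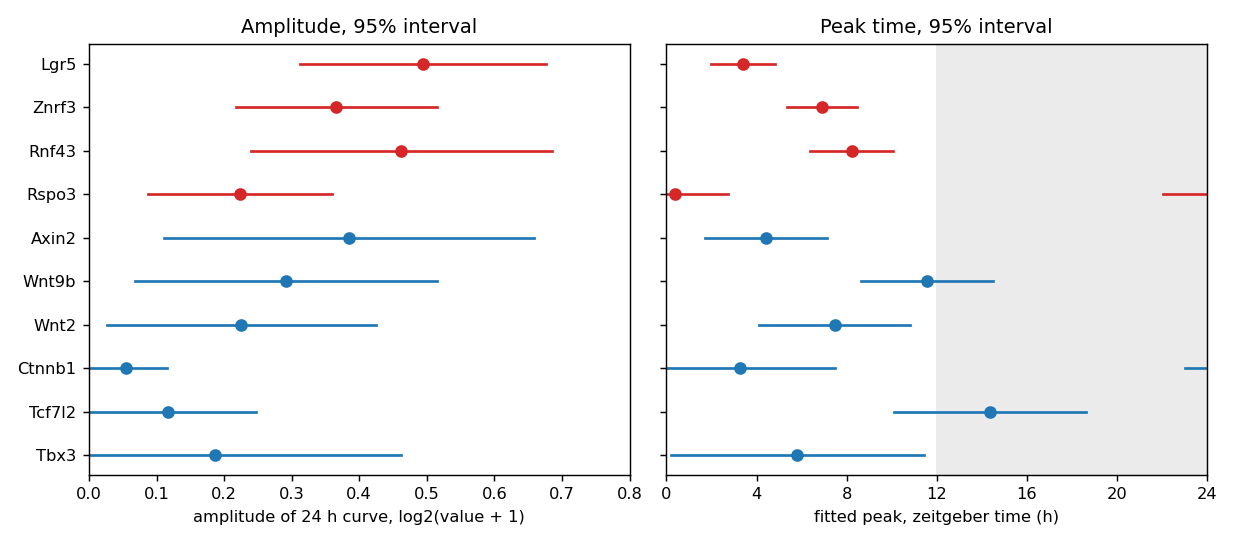
Amplitude of the fitted 24 h curve (left, log2(value + 1)) and its peak (right, zeitgeber time in h, dark phase shaded) for the 10 genes, in order of adjusted p. Points are estimates, lines are 95% intervals (amplitude intervals that reach 0 are drawn to 0, and peak intervals wrap at 24 h), and red marks the 4 called genes, whose peaks run from ZT0.372 for Rspo3 to ZT8.23 for Rnf43.

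The courses of the 4 called genes were compared through the difference in log2(value + 1) of each pair within a liver, called their ratio here. A permutation test over the 18 livers looked for a 24 h curve in the ratio, with adjustment over the 6 pairs. On this scale, such a curve arises from a difference in amplitude or in peak time, and the test does not tell these apart. The added 1 shrinks the amplitude of genes with low values more, so genes with equal fold courses can also give such a curve. The genes and the test were chosen after their values were seen. The ratio of Lgr5 to Rnf43 followed a 24 h curve of amplitude 0.57 (permutation adjusted p of 0.0019), as did those of Lgr5 to Znrf3 (amplitude 0.40, adjusted p of 0.0172 by permutation) and of Lgr5 to Rspo3 (0.37, 0.00333). The ratios of Rnf43 and of Znrf3 to Rspo3 did so with amplitudes of 0.60 and 0.45 (permutation adjusted p of 0.0019 in each). The pair of ubiquitin ligases was the only pair of the 6 whose ratio did not pass, with an amplitude of 0.17 and an adjusted p of 0.388 by permutation. By these tests on genes chosen from the same livers, Lgr5 and Rspo3 had courses that differed on this scale from each other and from Rnf43 and Znrf3. The difference may be in amplitude, peak time or both. The ratios were not tested with single livers left out. A difference between Rnf43 and Znrf3 was not detected in 18 livers.

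Axin2 (ENSMUSG00000000142, chromosome 11 from 108920349 to 108950783, plus strand) encodes a scaffold of the beta-catenin destruction complex and is a widely used read-out of Wnt signalling. Its values were 4.74, 3.23 and 3.20 at ZT1 and 5.39, 8.42 and 6.56 at ZT5. They were 4.55, 5.82 and 4.83 at ZT9 and 3.73, 3.11 and 2.82 at ZT13. At ZT17 they were 3.19, 1.08 and 4.38, and at ZT21 they were 4.08, 6.50 and 5.49. Every ZT5 liver was above every liver of ZT1, ZT13 and ZT17, and the ZT21 livers reached into the range of ZT5. The time points differed, with an adjusted p of 0.0369 in the limma F test over the 6 means, while the 24 h curve did not pass, with an amplitude of 0.38 ± 0.13 (SE), a peak at ZT4.41 ± 2.72 h and an adjusted p of 0.0705. The lowest value, in ZT17 replicate 2, rested on 12 estimated reads and the highest count over the livers was 157. Without that liver the 24 h curve had an amplitude of 0.26 and an adjusted p of 0.179 in limma, and the call over the 6 means stayed. It was lost in 10 of the 18 omissions of a single liver, namely replicates 2 and 3 of ZT1, ZT5, ZT9, ZT13 and ZT21, with an adjusted p from 0.0518 to 0.0866.

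By the test over the 6 means, the called genes were Axin2, Lgr5 (adjusted p of 0.0117), Rnf43 (0.00365) and Znrf3 (0.00207), or 4 of 10, against 26.3% of all genes. No member had a 12 h term by limma, with 2 at an unadjusted p below 0.05, and 0.872% of all genes had one. The rank test JTK called none of the 10 genes at a q-value below 0.05, with 5 at a p below 0.05 before adjustment over genes, against 14.0% of all genes called. The lowest JTK q-value was that of Lgr5, at 0.0542.

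Tbx3 (ENSMUSG00000018604, chromosome 5 from 119670669 to 119684724, plus strand) encodes a T-box transcription factor that marks pericentral hepatocytes. Values were 14.2, 18.2 and 15.5 at ZT1 and 15.9, 43.7 and 18.9 at ZT5. They were 18.3, 22.0 and 22.4 at ZT9 and 18.3, 14.5 and 12.4 at ZT13. The livers held 22.1, 11.6 and 22.1 at ZT17 and 13.2, 24.3 and 17.1 at ZT21. Apart from ZT5 replicate 2, all livers lay between 11.6 and 24.3, and the livers of ZT5 and ZT13, which had the highest and the lowest mean, overlapped. The curve gave an amplitude of 0.19 ± 0.13 (SE) and an adjusted p of 0.485, and its fitted ratio of peak to trough of 1.30 had a 95% interval that reached 1.90. Tbx3 shares 1.74% of its exon bases with Tbx3os1 on the other strand.

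The Wnt ligands were at low levels. Wnt2 (ENSMUSG00000010797, chromosome 6 from 17988940 to 18030585, minus strand), a ligand of sinusoidal and central vein endothelium, had 11 to 66 estimated reads per liver. Its values were 2.53, 2.23 and 1.39 at ZT1, 2.31, 1.99 and 2.77 at ZT5, and 3.28, 1.54 and 2.92 at ZT9. In the dark phase they were 1.27, 2.16 and 3.34 at ZT13, 1.75, 0.995 and 2.14 at ZT17, and 1.25, 2.28 and 1.49 at ZT21. The time points overlapped throughout, and the curve had an amplitude of 0.23 ± 0.09 (SE) with an adjusted p of 0.159.

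Wnt9b (ENSMUSG00000018486, chromosome 11 from 103727364 to 103749821, minus strand), the other ligand known from central vein endothelium, had 1 to 40 estimated reads per liver. The values were 0.865, 0.591 and 0.430 at ZT1, 0.122, 0.573 and 1.69 at ZT5, and 1.40, 1.16 and 0.609 at ZT9. They were 1.11, 0.719 and 1.52 at ZT13, 1.61, 0.822 and 0.713 at ZT17, and 0.202, 0.207 and 0.554 at ZT21. The ZT21 livers were below all livers of ZT9, ZT13 and ZT17, and the ZT5 livers spanned the whole range of the gene. The amplitude of Wnt9b was 0.29 ± 0.11 (SE) with a peak at ZT11.6 and an adjusted p of 0.0954. The fitted amplitudes of both ligands were no smaller than that of Rspo3 (0.22 ± 0.07 SE), and their errors were wider.

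Tcf7l2 (ENSMUSG00000024985, chromosome 19 from 55741820 to 55933654, plus strand) encodes the TCF factor through which beta-catenin acts in hepatocytes. Its values were 14.3, 13.6 and 13.5 at ZT1, 14.0, 11.3 and 16.5 at ZT5, and 13.7, 14.1 and 13.1 at ZT9. They were 16.0, 17.6 and 12.6 at ZT13, 16.5, 17.8 and 15.9 at ZT17, and 11.3, 15.3 and 11.1 at ZT21. The ZT17 livers were all above the ZT21 livers, yet the curve, with an amplitude of 0.12 ± 0.06 (SE) and a peak at ZT14.4, had an adjusted p of 0.298.

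Ctnnb1 (ENSMUSG00000006932, chromosome 9 from 120929216 to 120960507, plus strand) encodes beta-catenin, whose activity is set mainly by the stability of the protein. Its values were 216.5, 214.9 and 221.3 at ZT1 and 215.0, 215.0 and 199.8 at ZT5. They were 214.1, 203.3 and 210.0 at ZT9 and 199.6, 211.8 and 190.4 at ZT13. At ZT17 they were 204.7, 193.9 and 200.8, and at ZT21 they were 205.5, 199.5 and 207.7. The ZT1 livers lay above the ZT17 livers, but the whole course spanned little: the fitted ratio of peak to trough was 1.08, with a 95% interval from 1.00 to 1.17 and an adjusted p of 0.296. Rescaled to the same total in every liver, Ctnnb1 was called, with a ratio of 1.15 and an adjusted p of 0.0372. The totals of the normalized values were between 941088 and 969019 at ZT5 and between 1030952 and 1077230 at ZT17. Ctnnb1 shares 14.6% of its exon bases with Ulk4 on the other strand.

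In 5 of the 10 genes (Axin2, Lgr5, Tbx3, Rnf43 and Znrf3) the highest mean was at ZT5, as it was in 21% of all genes. The livers of the highest and the lowest time point did not overlap in 8 of the 10, all but Tbx3 and Wnt2, and this held for 70.8% of all genes. Of neighbours in the order of the 6 means, the only pairs whose livers did not overlap were ZT1 and ZT21 in Rnf43 and ZT9 and ZT21 in Znrf3. Per kilobase of exon, which allows genes to be compared, the level (mean over 18 livers) was highest for Ctnnb1 at 39.8 and next for Rnf43 at 2.96, Tbx3 at 2.89 and Tcf7l2 at 1.63. Rspo3 stood at 1.22, Znrf3 at 1.08, Wnt2 at 0.927, Axin2 at 0.819, Lgr5 at 0.496 and Wnt9b at 0.183. The SD between livers of a time point, as a share of the mean, was on average 3.08% for Ctnnb1 and 53.4% for Wnt9b, the lowest and highest of the 10, and 12.3% for Znrf3, 16.4% for Rnf43 and 23.4% for Lgr5.

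Promoter sequences from RefSeq (GRCm38.p6) were matched for 6 of the 10 genes, namely Axin2, Rnf43, Wnt2, Wnt9b, Tcf7l2 and Ctnnb1, with 9 windows of the 250 bases before a start. Windows are printed for Axin2, the pathway read-out, for an internal start of Rnf43, the matched gene with a called rhythm, and for an internal start of Tcf7l2, which held the only motif match. They are written from the 5′ end on the plus strand, in lower case, with the motif in capitals.
Axin2 (chr11:108920099-108920348): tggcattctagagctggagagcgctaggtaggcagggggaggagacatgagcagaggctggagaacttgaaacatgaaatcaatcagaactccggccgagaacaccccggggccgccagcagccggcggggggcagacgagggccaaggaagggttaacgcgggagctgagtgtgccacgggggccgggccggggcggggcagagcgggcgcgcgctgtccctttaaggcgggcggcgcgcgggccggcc
Rnf43 (chr11:87699647-87699896): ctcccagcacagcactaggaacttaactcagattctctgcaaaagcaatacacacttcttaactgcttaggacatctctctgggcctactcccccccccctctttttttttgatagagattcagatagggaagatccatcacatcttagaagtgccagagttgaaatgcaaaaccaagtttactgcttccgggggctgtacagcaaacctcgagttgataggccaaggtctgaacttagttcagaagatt
Tcf7l2 (chr19:55895071-55895320): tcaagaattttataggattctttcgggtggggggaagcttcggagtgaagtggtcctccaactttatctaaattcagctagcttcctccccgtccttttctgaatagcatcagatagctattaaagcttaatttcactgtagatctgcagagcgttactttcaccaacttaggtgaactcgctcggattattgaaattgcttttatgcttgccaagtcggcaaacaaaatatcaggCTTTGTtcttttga
Both strands were searched for CTTTGA and CTTTGT (bound by TCF factors), CACGTG (the E-box of the clock), TTATGTAA and TTACGTAA (D-boxes) and AGGTCA (bound by REV-ERB and ROR). The only match was CTTTGT in the Tcf7l2 window, 14 bases before the start. Over all 32851 windows of this length, CTTTGT was present in 16.5%, CTTTGA in 13.8%, CACGTG in 6.02%, AGGTCA in 14%, TTATGTAA in 0.819% and TTACGTAA in 0.113%. These letters were thus not in the other 8 windows, which says nothing of sites elsewhere.

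Because Axin2 is the usual read-out of the pathway, its level was compared over the 18 livers with that of 8 other genes on the log2(value + 1) scale, and Wnt2 was compared with Wnt9b, which gave 9 pairs with adjustment over them. Axin2 went with Tbx3, with a Pearson r of 0.70 (permutation adjusted p of 0.0148) and a Spearman coefficient of 0.64 (permutation adjusted p of 0.0216). Within time points, after the means were removed, r was 0.74 (exact permutation adjusted p of 0.0486), and without the 2 livers farthest from the median of Axin2, ZT17 replicate 2 and ZT5 replicate 2, the pooled r was 0.46, so much of the relation rested on them. Axin2 also went with Znrf3, with r of 0.64 (permutation adjusted p of 0.0148) and a Spearman coefficient of 0.75 (0.00558), and r was 0.69 without the same 2 livers. Within time points, r between Axin2 and Znrf3 was 0.24 (exact permutation adjusted p of 0.652), so that relation was not detected there. Axin2 and Lgr5 passed by rank only, with a Spearman coefficient of 0.60 (permutation adjusted p of 0.0289), r of 0.53 (0.0645) and r of 0.46 within time points (0.224). The pairs of Axin2 with Rnf43, Wnt2, Wnt9b, Rspo3 and Glul and the pair of the ligands did not pass, with r from -0.17 to 0.45 and permutation adjusted p from 0.129 to 0.626.

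**Figure D3:**
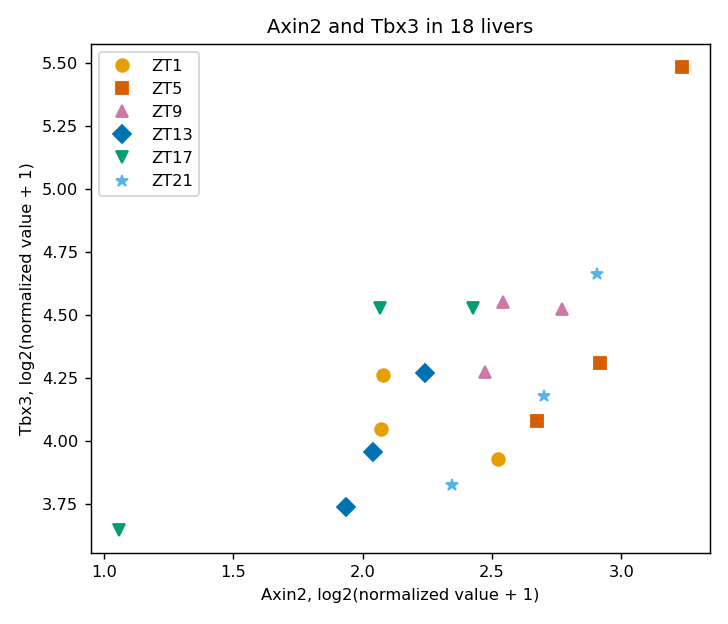
Level of Tbx3 (y axis) against Axin2 (x axis), both as log2(normalized value + 1), in 18 livers marked by zeitgeber time. The ZT5 liver at the top right and the ZT17 liver at the bottom left are those whose removal lowers r from 0.70 to 0.46.

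For each gene with a called 24 h curve, the 3 genes outside the lists with the most similar pattern over the 18 livers were taken from 12311 genes with a mean of at least 1, as a description. Those nearest to Lgr5 were Abi1, an actin regulator (r of 0.89), Junb, a subunit of the AP-1 factor (0.86), and Prkar1a, a regulatory subunit of protein kinase A (0.84). Those nearest to Rnf43 were Gcnt2, a glycosyltransferase (0.90), Nr2f2, the nuclear receptor COUP-TFII (0.87), and Plekhg5 (0.87). For Znrf3 they were Fgfrl1, a member of the FGF receptor family without a kinase domain (0.93), Scamp1, a vesicle membrane protein (0.92), and Hdc, the enzyme that makes histamine (0.92). For Rspo3 they were Ccdc138 (0.80), Tmem144 (0.79) and Stk4, a kinase of the Hippo pathway (0.79). Livers of the same time point share their clock time, so these values of r include any common daily course, and 11 of the 12 genes had a called 24 h rhythm, all but Stk4 (adjusted p of 0.383).

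The other genes of the pathway were taken from lists by role. Among the receptors, 6 of 11 tested genes (54.55%) had a 24 h rhythm, against 35.3% of all genes. Fzd4, a Frizzled receptor prominent in endothelium, had an amplitude of 0.53 ± 0.07 (SE), a peak at ZT10.4 and an adjusted p of 9.41e-05, with means of 25.8 ± 0.492 (SD, n = 3) at ZT1 and 61.8 ± 14.1 (SD, n = 3) at ZT9. The co-receptor Lrp6 (amplitude 0.30, ZT4.84, adjusted p of 0.00131) and Fzd8 (0.48, ZT9.57, 0.00261) also peaked in the light phase, and Lrp5, the other co-receptor, peaked at ZT23.7 (0.28, 0.0284). The 2 others called, named here after their values were seen, were Fzd6 (0.68, ZT3.35) and Lgr4, the relative of Lgr5 (0.24, ZT4.90). The difference between the peaks of Lgr4 and Lgr5 was not tested.

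Among other ligands and factors of Wnt secretion, 7 of 22 listed genes were tested and 2 were called (28.6%, against 35.3% of all genes). Wnt5b, a ligand of the pathway branch that does not use beta-catenin, went from 2.23 ± 0.676 (SD, n = 3) at ZT5 to 9.93 ± 3.51 (SD, n = 3) at ZT17, with an amplitude of 0.86 ± 0.10 (SE) and an adjusted p of 2.97e-05. Wnt5a, of the same branch, peaked at ZT17.6 with an amplitude of 0.30 and an adjusted p of 0.0226. The count was 1 of 7 without ZT5 replicate 2. Both peaks lay in the dark phase.

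In the destruction complex and its partners, 6 of 15 genes (40%, against 35.3% of all genes) were called, all with peaks in the light phase, and the count was 2 with the endothelial covariate. Tnks2, a tankyrase that marks axin for breakdown, peaked at ZT4.19 (amplitude 0.23, adjusted p of 0.000109), and Btrc, which recognizes beta-catenin for ubiquitination, at ZT5.94 (0.25, 0.00507). The scaffolds Axin1 (amplitude 0.19, ZT6.78, 0.0121) and Apc (0.16, ZT6.57, 0.0195) moved less. Of the nuclear partners, 4 of 10 (40%, also near the share of all genes) were called. The corepressor Tle1 (amplitude 0.41, ZT5.79, 0.000146) and the factor Tcf7 (0.46, ZT6.97, 0.00676) had peaks in the light phase. The coactivator Bcl9l (0.28, ZT12.7, 0.0336) and the beta-catenin inhibitor Ctnnbip1 (0.19, ZT12.3, 0.0377) had fitted peaks early in the dark phase. Their 95% intervals, of ± 2.33 h and ± 2.38 h, reached into the light phase. The count for nuclear partners was 2 without ZT1 replicate 1 or 2 or ZT13 replicate 1 or 3 and with the endothelial covariate. Of the antagonists, 3 of 6 (50%, against 35.3% of all genes) were called. They were the DKK receptor Kremen1 (amplitude 0.25, ZT5.85, 0.0097), Dkk3 (0.22, ZT20.6, 0.0298) and the secreted Frizzled-related protein Frzb (0.19, ZT15.4, 0.0392). For antagonists, the count was 0 of 6 when endothelial level was a covariate and 1 when every liver was rescaled to the same total. The median amplitude was 0.24 for the receptors, 0.24 for other ligands, 0.11 for the destruction complex, 0.18 for nuclear partners and 0.20 for antagonists, against 0.16 for all genes.

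Zonated hepatocyte genes were called in 12 of 20 pericentral (60%) and 5 of 18 periportal cases (27.8%), against 35.3% of all genes. By a cut of the fitted peaks at ZT12, 4 called pericentral genes fell in the light phase and 8 in the dark phase. This cut is not sharp. Cyp2e1, at ZT11.8 ± 1.485 h (95% interval), was counted as light, and intervals of several genes counted as dark also reached across ZT12. Cldn2, a tight junction protein, peaked at ZT1.34 (amplitude 0.32, adjusted p of 0.000215), the glutamate transporter Slc1a2 at ZT9.53 (0.43, 0.000547), Lhpp at ZT7.71 (0.55, 0.000747), and Cyp7a1, the rate-limiting enzyme of bile acid synthesis, at ZT15.3 (0.91, 0.00247). Glul, the glutamine synthetase gene and a strict pericentral target of Wnt signalling, had means of 649.9 ± 86.4 (SD, n = 3) at ZT1 and 803.1 ± 8.84 (SD, n = 3) at ZT13, without passing the test (amplitude 0.18 ± 0.06 SE, ZT13.1, adjusted p of 0.0667). Periportal genes called included Asl of the urea cycle (0.64, ZT15.6, 2.69e-06), Hal (0.44, ZT0.326, 0.000802), Pck1 of gluconeogenesis (0.96, ZT5.34, 0.0109) and Sds (0.44, ZT8.47, 0.0178). The median amplitude was 0.24 for the pericentral and 0.13 for the periportal list. The summed value of the 20 pericentral genes was highest at ZT13, at 11682 ± 947 (SD, n = 3), and lowest at ZT21, at 8135 ± 1035 (SD, n = 3). This sum is of linear values, and its largest term was Cyp2e1, a drug-metabolizing enzyme with a mean of 4662 and a peak at ZT11.8, so it does not give the course of the list as a whole. The called pericentral genes peaked at times from ZT1.34 to ZT22.7.

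**Figure D4:**
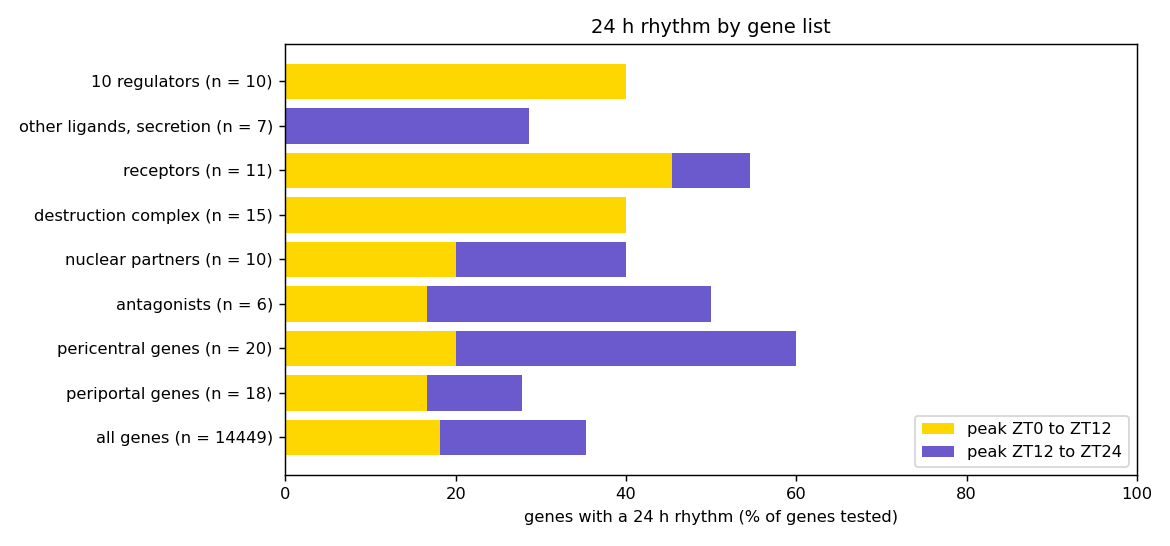
Share of tested genes with a called 24 h rhythm (x axis, %, bars from 0) in the 10 regulators, 7 lists and all genes, split by a fitted peak in the light phase (yellow, ZT0 to ZT12) or the dark phase (violet, ZT12 to ZT24). All called genes among the regulators and the destruction complex have fitted peaks between ZT0 and ZT12, with the Rspo3 peak close to ZT0, and pericentral genes split into 4 and 8.

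Markers of other liver cells were called in shares above and below the 35.3% of all genes. Of the sinusoidal endothelial markers, 7 of 11 (63.6%) had a 24 h rhythm, all with peaks in the light phase, and their summed value went from 258.3 ± 56.9 (SD, n = 3) at ZT21 to 382.3 ± 34.1 (SD, n = 3) at ZT5, with single livers from 188.1 to 414.6. The most clearly called was Flt4 (amplitude 0.47, ZT8.03, adjusted p of 0.00621). Kupffer cell markers were called in 5 of 10 cases (50%), led by Cd5l (0.59, ZT8.22, 0.00246), with a sum from 206.1 ± 47.3 (SD, n = 3) at ZT21 to 334.7 ± 30.5 (SD, n = 3) at ZT9. Markers of all endothelium were called in 3 of 8 cases (37.5%), of central vein endothelium in 1 of 4 (25%, Selp, ZT2.75), of stellate cells in 2 of 12 (16.7%, Ngfr and Col3a1) and of mesothelium in 1 of 3 (33.3%, Msln). All of these had fitted peaks in the light phase, though some 95% intervals, such as that of Msln (ZT0.468 ± 2.45 h), reached into the dark phase. Cholangiocyte markers were called in 3 of 5 (60%), all with fitted peaks in the dark phase. The 95% interval of Epcam (ZT12.55 ± 2.305 h) reached into the light phase. Lymphocyte markers were called in 0 of 4 by limma and the hepatocyte genes in 3 of 8 (37.5%), the latter all with peaks in the dark phase. Of the lymphocyte markers, 3 had an unadjusted p below 0.05, and the count was 1 under the same total in every liver. Several of these counts turned on single livers. The count for all endothelium was 0 without ZT21 replicate 1, 1 without ZT5 replicate 1 or 3, ZT17 replicate 2 or ZT21 replicate 2, and 5 without ZT9 replicate 1 or ZT17 replicate 3. The Kupffer count was 3 without ZT21 replicate 1 and 8 without ZT17 replicate 3. The stellate count was 1 without ZT5 replicate 1 or ZT21 replicate 1 and 4 without ZT13 replicate 2. The single calls of central vein endothelium and mesothelium were lost in 13 and 10 of the 18 omissions, and 8 omissions gave 1 or 2 lymphocyte calls. No sinusoidal endothelial or Kupffer marker was at 0 in any liver, with Bmp2 at 56 estimated reads or more and Marco at 10 or more.

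The mean log2 level of the sinusoidal and general endothelial markers was added as a covariate. With it, Lgr5 (adjusted p of 0.00291), Rspo3 (0.00424) and Znrf3 (0.0415) were still called in the limma 24 h test. The call of Rnf43 was lost, at an adjusted p of 0.0548. Its amplitude was 0.46 ± 0.14 (SE), against 0.46 ± 0.11 (SE) without the covariate, so the error widened while the amplitude stayed. The peak of Rspo3 moved to ZT22.7 and that of Lgr5 to ZT3.01. The steps of Rnf43 and Znrf3 from ZT1 to ZT5 were no longer called, and the fall of Znrf3 from ZT9 to ZT13 was (adjusted p of 0.0317). Over all genes the count went from 5103 to 3936. The count was 6 of 11 for the receptors, as without the covariate, and went from 6 to 2 for the destruction complex, from 4 to 2 for nuclear partners, from 3 to 0 for antagonists, from 12 to 10 for pericentral and from 5 to 3 for periportal genes. For the sinusoidal markers, which are part of the covariate, it went from 7 to 1, and for the Kupffer markers from 5 to 0. In the 24 h test under this covariate, the adjusted p was 0.758 for Wnt2 (amplitude 0.11) and 0.141 for Axin2 (amplitude 0.30). The limma test over the 6 means with the covariate called 5 members, with Axin2 at an adjusted p of 0.0247 and Rspo3 at 0.0447. The part of Kupffer cells in the results of the 10 genes was not tested.

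**Figure D5:**
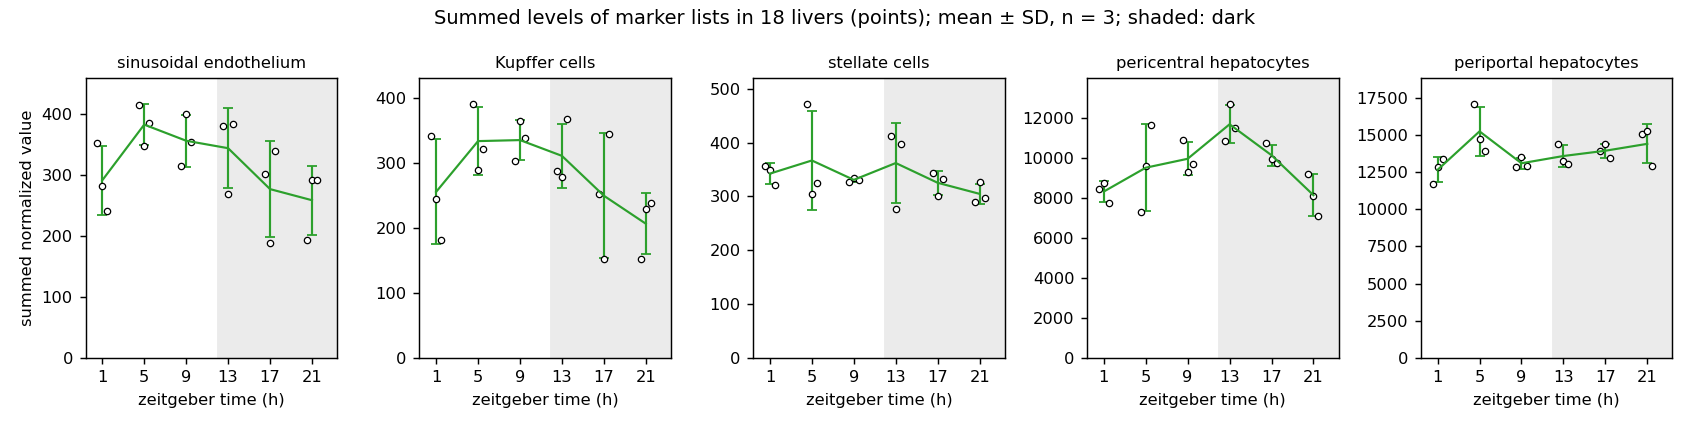
Summed normalized value (y axis, linear from 0) of 5 marker lists against zeitgeber time (x axis, h) in 18 livers, with points for single livers, lines and bars for the mean ± SD of 3 livers and shading for the dark phase. Sinusoidal endothelial markers sum to 382.3 at ZT5 and 258.3 at ZT21, and pericentral genes are highest at ZT13.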

How the data were processed

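RNA was measured in 18 mouse livers, 3 at each of 6 time points. Per the submitters' processing notes, reads were made with CASAVA 1.8.2, trimmed with Cutadapt and quantified with RSEM 1.2.20 on GRCm38, and the paper names Ensembl gene-build 84 and limma normalization. The authors deposited a linear signal made from the estimated counts. As read from the values, 0.5 reads were added to each estimated count before division by an effective library size in units of 1000000 reads. Between 39.0% and 47.9% of values per liver were whole reads (within 0.005 reads), so no count test was used. The table holds 14451 genes, and 2 at the lowest value in every liver were left out.

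Values were tested as log2(value + 1) with limma 3.58.1 (R 4.3.3) over 14449 genes: a cosine and sine of 24 h, the 6 means, an added 12 h pair and steps between time points, each with Benjamini–Hochberg adjustment and a threshold of 0.05. The curves of CircaN have constants that the paper's text does not give, so a 24 h cosine was used. JTK was written in Python 3.11.15 with numpy 2.4.6, with periods of 20, 24 and 28 h. Ranks for the Spearman coefficients came from scipy 1.17.1. Single relations between genes used 100000 permutations of the livers. The limma F tests, JTK and the correlation tests were tried on simulated data, and the ratio test was not. Of 100 curves made there with a 24 h amplitude of 0.3, the limma 24 h test called 69 and JTK called 31. Curves were added only to genes with levels above those of Wnt2 and Wnt9b, and 14049 genes were left flat. In the livers 5103 genes were called, so these rates do not carry over to the members. Exons and positions are from GENCODE M21. The limma tests of the 6 means and of steps set differences against the spread between single mice of a time point. In the 24 h test, departures of the 6 means from the curve also count as spread. Permutations over all livers mix differences between time points with those between mice, and only the tests within time points keep them apart.

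The members and lists were chosen with earlier results of these data known. By the rule, the text names all members, up to 4 called genes per list by adjusted p with the best in each direction, Glul, and the 3 genes nearest to each called member. Alternatives were other pseudocounts (0.5 and 0.1), a mean of at least 1, other scalings, limma-trend, an endothelial covariate, 12 h terms and leaving out each liver.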

Additional observations from a re-analysis of the deposited data

How the results depend on the processing

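Over 8 alternative settings, the number of members with a 24 h rhythm lay between 3 and 5, against 4, and over the 18 omissions of a single liver it lay between 3 and 5. Lgr5 and Znrf3 were called in all of these settings and Rnf43 in all but the endothelial covariate. Axin2 was called without ZT1 replicate 2 (adjusted p of 0.0409), ZT1 replicate 3 (0.0398) or ZT21 replicate 2 (0.0352). Its adjusted p in the limma 24 h test was 0.168 without ZT5 replicate 2 and 0.179 without ZT17 replicate 2. Its call over the 6 means was lost with pseudocounts of 0.5 and 0.1. Wnt9b was not tested under a mean of at least 1. The 3 called steps fell to 1 with the endothelial covariate and ranged from 1 to 4 when single livers were left out, with 1 without ZT1 replicate 3 or ZT5 replicate 3. The 0 members called by JTK became 1 with the 24 h period only, 1 with a mean of at least 1 (Lgr5 in both) and 2 with the same total in every liver (Lgr5 and Ctnnb1), and ranged from 0 to 1 when single livers were left out, with Lgr5 called without ZT1 replicate 2 or ZT21 replicate 3. The 2 called correlations became 4 with the same total and 1 with deviations from time point means. The cause of these changes was not tested. No called correlation or step changed sign. Correlations that did not pass did so for Axin2 with Glul (r of -0.12, 0.07 with the same total and 0.38 within time points) and with Wnt9b (-0.17 and 0.17 within time points). Depth limits Wnt9b most, with as few as 1 estimated read in a liver. No paired analysis was possible because the labels number no replicates, so that the numbers used here only name livers of separate mice.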
